A study of Mus musculus with 16 samples.

Results

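The 10 genes described here act in spermatogonial stem cells or in their response to GDNF, and were followed through the ATAC-seq peak lists of 4 stages of mouse spermatogenesis. They were the co-receptor gene Gfra1 and the receptor gene Ret, the regulators Etv5, Bcl6b, Id4, Lhx1, Eomes and Pou3f1, and Nanos2 and Zbtb16. These 10 genes stood among 21385 genes with a transcription start site (TSS) in the lists. All peaks that named 1 of them in the authors' gene column were taken, which gave 631 of 1111092 peaks. A peak counted as a promoter peak where it overlapped the 1000 bp on either side of the gene's TSS, and as distal otherwise.

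ATAC-seq marks accessible chromatin, since the Tn5 transposase inserts sequencing adapters there. The adult germ cells were pachytene spermatocytes (PS), which are in meiotic prophase, and round spermatids (RS), which have completed meiosis. The spermatogonia came from postnatal day 7 (P7) testes, as the Thy1+ fraction (Thy1), which holds stem and progenitor cells, and the c-Kit+ fraction (cKit), which is differentiating. Every stage was taken from Scml2 knockout (KO) and wild-type (WT) C57BL/6 mice, with 2 libraries in each of the 8 groups, 16 in all. SCML2 is a germline Polycomb protein. Stage and age cannot be told apart here, since the spermatogonia are from P7 and the other cells from adult mice. The number of cells per reaction also went with stage, at 500000 in Thy1 and cKit, 250000 in PS and 1000000 in RS. It cannot be told apart from stage either. Nothing in the labels shows whether the replicates of a group are from different mice. The p-values then cover only library-to-library spread, and some of that may be technical.

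GDNF is made by somatic cells of the testis and binds GFRA1 on undifferentiated spermatogonia, and the pair then activates the receptor tyrosine kinase RET. RET signalling through SRC family kinases and AKT raises a set of transcription factors, among them ETV5, BCL6B, LHX1, POU3F1 and EOMES, that favour self-renewal over differentiation. ID4, NANOS2 and ZBTB16 (PLZF) also mark or maintain undifferentiated spermatogonia.

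RefSeq promoter windows (GRCm38.p6) matched 6 of the 10 genes: Gfra1, Etv5, Id4, Nanos2, Lhx1 and Eomes. The 250 bases before the start are shown for 4 of them, because they span the range of promoter accessibility found here. The sequences read 5′ to 3′ on the gene's strand, with CG dinucleotides, the sites of DNA methylation, in capitals.
Etv5, chr16:22439571-22439820, minus strand: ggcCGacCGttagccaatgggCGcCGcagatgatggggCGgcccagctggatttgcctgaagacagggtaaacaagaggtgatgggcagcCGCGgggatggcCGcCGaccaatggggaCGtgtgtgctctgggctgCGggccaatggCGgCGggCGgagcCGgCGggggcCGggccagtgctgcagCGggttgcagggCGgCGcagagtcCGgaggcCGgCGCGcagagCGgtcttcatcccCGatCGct
Id4, chr13:48260866-48261115, plus strand: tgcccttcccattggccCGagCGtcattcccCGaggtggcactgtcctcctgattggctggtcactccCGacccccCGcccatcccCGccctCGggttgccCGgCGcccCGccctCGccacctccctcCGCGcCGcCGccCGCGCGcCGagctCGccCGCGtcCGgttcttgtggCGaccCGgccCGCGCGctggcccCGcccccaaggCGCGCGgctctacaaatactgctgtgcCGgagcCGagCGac
Gfra1, chr19:58455399-58455648, minus strand: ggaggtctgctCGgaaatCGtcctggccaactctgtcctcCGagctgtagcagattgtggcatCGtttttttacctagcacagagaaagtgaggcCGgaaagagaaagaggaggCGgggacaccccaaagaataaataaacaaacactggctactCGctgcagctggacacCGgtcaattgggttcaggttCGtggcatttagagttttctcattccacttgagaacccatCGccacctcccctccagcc
Nanos2, chr7:18987274-18987523, plus strand: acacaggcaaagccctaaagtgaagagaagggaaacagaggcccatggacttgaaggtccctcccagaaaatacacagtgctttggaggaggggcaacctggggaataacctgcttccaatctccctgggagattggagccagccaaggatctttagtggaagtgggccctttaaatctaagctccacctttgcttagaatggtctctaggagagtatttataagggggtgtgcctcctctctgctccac

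The Etv5 window held 27 CG dinucleotides and the Id4 window 35, and both windows overlapped a peak in 16 of 16 libraries. The Lhx1 window held 26 and overlapped a peak in 9 libraries. The Gfra1 window held 10 and overlapped a peak in 3, the Eomes window 8 with a peak in 0, and the Nanos2 window 0 with a peak in 0. The RefSeq start of Id4 stands at -311 bp from the start used by the authors. The median over all 32851 windows was 6 CG dinucleotides. It was 18 for genes with a promoter peak in 16 libraries, against 2 for genes with one in 0 libraries. CCAAT, read on both strands with its reverse complement ATTGG, was in 33.8% of all windows. It occurred 3 times in the Etv5 window, 2 times each in those of Id4 and Nanos2 and 1 time in that of Gfra1. GGGCGG, or CCGCCC on the other strand, was in 32.7% of all windows and occurred 3 times for Etv5 and 5 times for Id4. TATAAA, or TTTATA on the other strand, was in 12.4% of all windows and occurred 1 time for Nanos2 and 0 times in the other 3 windows shown. These motifs were only searched as letters, and a match is not a binding site.

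The lists differed in length, which bears on every count of peaks. They held 110680 and 52113 peaks in Thy1 KO and 135892 and 75038 in Thy1 WT, and 91480 and 17813 in cKit KO and 83378 and 32356 in cKit WT. In the adult cells they held 105751 and 21878 peaks in PS KO and 85348 and 24751 in PS WT, and 164060 and 27105 in RS KO and 52379 and 31070 in RS WT. A missing peak therefore means that none passed the authors' threshold in that list, and fewer cells with an open site cannot be told apart from a weaker signal per cell. Reads per library are unknown. Marker promoters were counted as a check of the labels. Promoters of 6 meiotic prophase genes were all open in each of the 8 adult libraries, against 0 to 2 of 6 in each of the 8 P7 libraries. Of 8 spermatid and sperm genes, 6 to 8 were open in adult libraries and 0 to 1 in P7 libraries. Of 8 spermatogonial genes, 4 to 8 were open in adult libraries and 3 to 8 in P7 libraries, so this list did not separate the ages. None of these lists tells Thy1 from cKit cells, or RS from PS cells, in all of their libraries. Promoters of somatic testis genes (Sertoli, peritubular, Leydig, endothelial and immune, 38 in all) were open at 2 to 15 in the adult libraries and at 10 to 30 in the P7 libraries. Of these, Gata1, Cyp11a1, Hsd3b1, Pecam1, Tie1, Ptprc and Adgre1 had a promoter peak in 0 of 16 libraries. The promoter of Scml2 itself had a peak in 3 of 8 KO and 6 of 8 WT libraries. The place of the deletion is not given in the sources used here, so this does not check the genotype labels.

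The promoters of the 10 genes fell into 3 kinds. Etv5, Id4 and Pou3f1 had a promoter peak in 16 of 16 libraries, as did 39.1% of all genes. Gfra1, Ret, Bcl6b, Lhx1, Eomes and Zbtb16 had one in 9 to 13 libraries, and Nanos2 in 3. The number of the 10 promoters with a peak was 9 and 9 in Thy1 KO, 10 and 10 in Thy1 WT, 9 and 5 in cKit KO and 9 and 3 in cKit WT. It was 7 and 5 in PS KO, 7 and 5 in PS WT, 9 and 8 in RS KO and 5 and 6 in RS WT. In all cKit and PS groups replicate 2, the shorter list, had the lower count. The share of all genes with a promoter peak was 65.4% to 74.1% in Thy1 libraries, 50.8% to 70.6% in cKit, 54.9% to 66.3% in PS and 54.9% to 69.1% in RS.

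**Figure D1:**
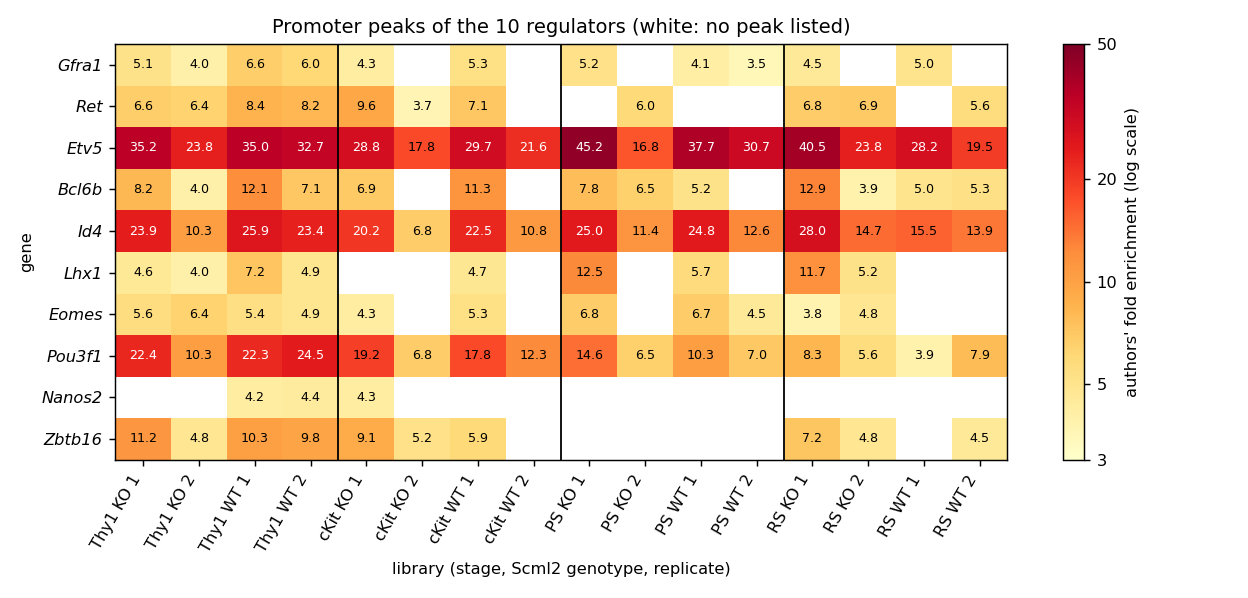
Fold enrichment of the strongest promoter peak of each gene (rows) in each library (columns, by stage, Scml2 genotype and replicate), as the authors deposited it, on a log colour scale. White cells have no listed promoter peak. Etv5 reached 45.2 and had a peak in every library, whereas Nanos2 had one in 3 P7 libraries and Zbtb16 in 0 of the 4 PS libraries.

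At Gfra1, the GPI-anchored co-receptor that binds GDNF, 5 of 8 adult libraries and 6 of 8 P7 libraries had a promoter peak. Its fold enrichment, the authors' peak height over the local background, was 5.20 in PS KO replicate 1, 4.13 and 3.52 in PS WT, 4.54 in RS KO replicate 1 and 4.98 in RS WT replicate 1. In P7 cells it was 5.09 and 3.97 in Thy1 KO, 6.63 and 6.00 in Thy1 WT, 4.26 in cKit KO replicate 1 and 5.34 in cKit WT replicate 1. Ranked by fold from the top, these peaks stood 35.3% to 100% of the way down their lists, with a median of 59.4%. The 4 Thy1 libraries were the only stage in which every library had one. The start used by the authors for Gfra1, at chr19:58454466 (mm10), is not the RefSeq start whose window is printed above, which stands at -932 bp from it. A region just upstream of both starts (chr19:58455650-58456188) was open in 2 adult libraries, at folds of 3.10 in PS WT replicate 1 and 3.41 in RS KO replicate 1, and in 6 P7 libraries, at folds of 3.97 to 10.3. That difference missed the threshold (Fisher's exact test, adjusted p = 0.177).

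At Ret, the receptor tyrosine kinase, 4 of 8 adult and 7 of 8 P7 libraries had a promoter peak. The adult peaks had folds of 5.98 in PS KO replicate 2, 6.81 and 6.93 in RS KO and 5.64 in RS WT replicate 2. The P7 peaks had folds of 6.62 and 6.36 in Thy1 KO, 8.44 and 8.18 in Thy1 WT, 9.59 and 3.67 in cKit KO and 7.12 in cKit WT replicate 1. So 3 of 4 PS libraries listed no Ret promoter peak, and the PS library that did was a short list. The Ret and Zbtb16 promoters were in the same state in 15 of 16 libraries, the nearest likeness between 2 of the genes outside the 3 that were always open. This is a description over libraries that differ in length.

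Etv5 encodes an ETS transcription factor that GDNF induces and that the stem cell pool needs. Its promoter peak was the strongest of the set, with a lowest, median and highest fold of 16.8, 29.4 and 45.2 in the adult libraries and 17.8, 29.2 and 35.2 in the P7 libraries. Ranked by fold it stood within the top 6.45% of every list, and within the top 0.061% in RS KO replicate 1. The peak summit lay between -323 and -127 bp from the TSS in every library, inside or next to the window printed above.

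Id4, an inhibitor of DNA binding that marks stem cells among undifferentiated spermatogonia, had folds of 11.4, 15.1 and 28 (lowest, median and highest) in adult libraries and 6.82, 21.4 and 25.9 in P7 libraries. Pou3f1, a POU domain factor regulated by GDNF, had 3.88, 7.46 and 14.6 in adult libraries and 6.82, 18.5 and 24.5 in P7 libraries. For Pou3f1 the 4 RS folds were 8.33 and 5.63 in KO and 3.88 and 7.89 in WT, and the 4 Thy1 folds were 22.4 and 10.3 in KO and 22.3 and 24.5 in WT. A fold is set within its own list, so no order is read from these values.

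Bcl6b, a GDNF-induced transcriptional repressor, was open at its promoter in 7 adult and 6 P7 libraries. Its promoter peaks formed 2 regions, and both held peaks in both ages. By fold, the strongest promoter peak lay upstream of the TSS in every P7 library with one, with summits at -820 to -795 bp. In the adult libraries with one it lay downstream, at 529 to 743 bp, except in PS KO replicate 2 (-677 bp). This order of summits was not tested. The upstream region (chr11:70230338-70230772) had a peak in 4 adult and 6 P7 libraries, the downstream one (chr11:70228859-70229772) in 6 adult and 4 P7 libraries, and neither difference passed (Fisher's exact test, adjusted p = 0.693 for each).

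Lhx1, a LIM homeobox factor, shares its promoter peaks with the gene 1500016L03Rik, which they also name, so both genes had peaks in the same libraries. The 4 adult libraries with a peak had folds of 12.5 in PS KO replicate 1, 5.68 in PS WT replicate 1 and 11.7 and 5.20 in RS KO. The 5 P7 libraries had folds of 4.59 and 3.97 in Thy1 KO, 7.24 and 4.91 in Thy1 WT and 4.75 in cKit WT replicate 1. At a −log10 q of 5 or more the direction turned (37.5 points more adult libraries, adjusted p = 0.385, Fisher's exact test), so no order is given.

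Eomes, a T-box factor found in a subset of GFRA1-positive spermatogonia, had a promoter peak in 5 adult libraries at folds of 3.78 to 6.76 and in 6 P7 libraries at folds of 4.26 to 6.36. Its summits lay at 458 to 1171 bp from the TSS with a median of 1033 bp, within the gene, and 0 libraries had a peak over the 250 bases before the start. Arap3 and Rab37 had promoter peaks in the same 11 libraries as Eomes, and no other gene did.

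Nanos2, an RNA-binding protein that holds back differentiation, had a promoter peak in 0 of 8 adult libraries. It had one in 3 of 8 P7 libraries, with folds of 4.22 and 4.36 in Thy1 WT and 4.26 in cKit KO replicate 1. Ranked by fold from the top, these peaks stood 78.2% and 82.3% of the way down the 2 Thy1 WT lists and 83.1% down that of cKit KO replicate 1.

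Zbtb16, a zinc finger repressor needed for self-renewal, had the stage pattern with the widest difference among the promoters. PS libraries had a peak in 0 of 4. RS libraries had one in 3 of 4, with folds of 7.19 and 4.76 in KO and 4.51 in WT replicate 2. Among P7 libraries 7 of 8 had one, with folds of 11.2 and 4.77 in Thy1 KO, 10.3 and 9.82 in Thy1 WT, 9.06 and 5.24 in cKit KO and 5.93 in cKit WT replicate 1.

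**Figure D2:**
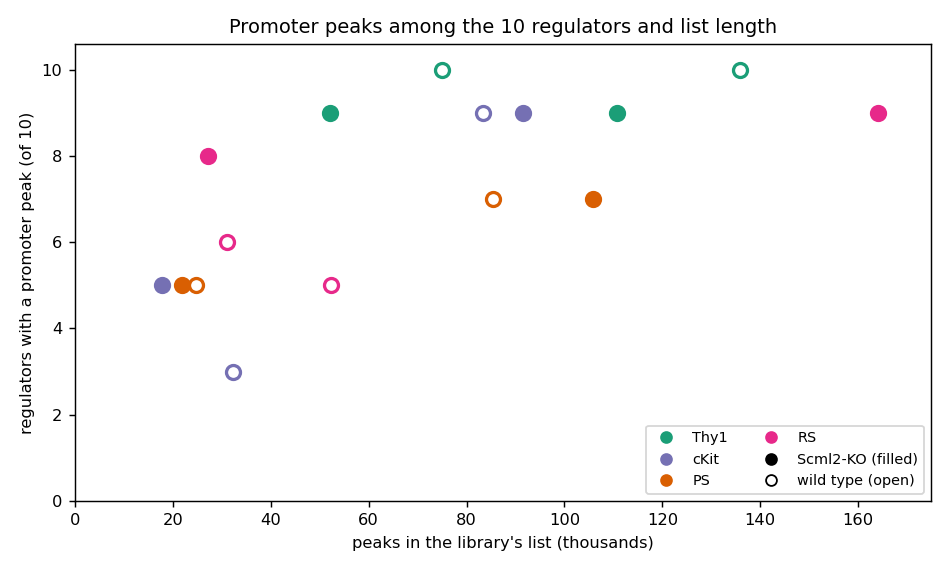
Number of the 10 promoters with a peak (vertical axis) against the number of listed peaks divided by 1000 (horizontal axis), 1 point per library. The 4 Thy1 libraries sit at 9 or 10, the 4 PS libraries at 5 or 7, and the short lists of cKit replicate 2 at 5 (KO) and 3 (WT).

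Adult germ cells were first compared with P7 spermatogonia at the promoters, which asks whether the stem cell program stays open once cells have entered meiosis. None of the 10 promoters was called. A two-sided Fisher's exact test of how many libraries held a peak could be run on 5 of them (Gfra1, Ret, Lhx1, Zbtb16 and Eomes), the promoters open in 5 to 11 of 16 libraries. Of these 0 of 5 passed an adjusted p of 0.05, and 0 of 5 had an unadjusted p under 0.05, as 56.3% of all genes tested had. Over all genes 33.3% of those tested were called, 8.50% higher and 24.8% lower in adult cells (332 and 968 genes, or 814 and 1311 with lists of equal length). Zbtb16 had 3 of 8 adult against 7 of 8 P7 libraries (adjusted exact p = 0.188) and Ret 4 against 7 (adjusted exact p = 0.377). Gfra1 and Eomes each had 5 against 6, and Lhx1 4 against 5 (adjusted exact p = 1 for each). These p-values do not show that the promoters were equally open. Without the short list of cKit WT replicate 2, the adjusted p of Zbtb16 was 0.0491, the only such call among the 16 fits that left out 1 library.

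Step by step through differentiation, 0 of the 10 promoters had a peak in all 4 libraries of a stage and none of the 4 of the stage before, or the reverse. For cKit against Thy1, of all genes open in 4 of these 8 libraries, 10.7% were open in Thy1 alone and 0 in cKit alone. For PS against cKit the shares were 19.2% in PS alone and 24.2% in cKit alone, and for RS against PS they were 2.88% in RS alone and 4.95% in PS alone. For cKit against Thy1, no promoter of the 10 genes was open in 4 of the 8 libraries. For PS against cKit only that of Ret was (1 PS and 3 cKit libraries). For RS against PS only those of Ret (3 RS and 1 PS library) and Lhx1 (2 and 2) were. The count of 0 of 10 can therefore not be set against these shares. The closest among the 10 genes were Zbtb16, with 0 of 4 PS and 3 of 4 cKit libraries and then 3 of 4 RS libraries, and Lhx1, with 1 of 4 cKit and 4 of 4 Thy1 libraries. With 4 libraries against 4 the smallest two-sided exact p is 0.0286, so these counts were not tested one by one.

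Away from the promoters, adult and P7 cells differed at 14 regions of these genes. Of the called regions, 3 in Gfra1 introns were open in adult cells alone, whereas 3 regions upstream of Nanos2, 5 of 6 called regions in Zbtb16 introns and 1 region each of Ret and Etv5 were lower in adult cells. In all, the peaks of the 10 genes formed 211 distal regions, of which 24 were testable, being open in 5 to 11 libraries. The test called 14 of the 24 (58.3%), with 4 higher (16.7%) and 10 lower (41.7%) in adult cells. Over all regions tested 66.8% had an unadjusted p under 0.05 and 61.3% were called, 14.5% higher and 46.8% lower, so the shares among the 10 genes were close to those of the genome. With every list held to its 17813 peaks of highest −log10 q, 2 of the 14 calls were kept, the Nanos2 region nearest the gene (adjusted p = 0.0347) and the Zbtb16 region 112 kb downstream (adjusted p = 0.0146), both by Fisher's exact test. Over the genome that setting called 3575 regions higher and 4411 lower, against 7024 and 22616 with the full lists. With both RS KO libraries left out, a choice made after seeing the data, 1 of the 4 higher calls was kept, the Gfra1 region 93.1 kb downstream (adjusted p = 0.00522, Fisher's exact test), and 12 regions were called lower. Of the 211 regions 130 (61.6%) were open in 1 library, as were 54.2% of all regions. The P7 libraries also had more somatic marker promoters open (10 to 30 of 38, against 2 to 15 in adult libraries), and their part in the regions lower in adult cells was not tested.

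**Figure D3:**
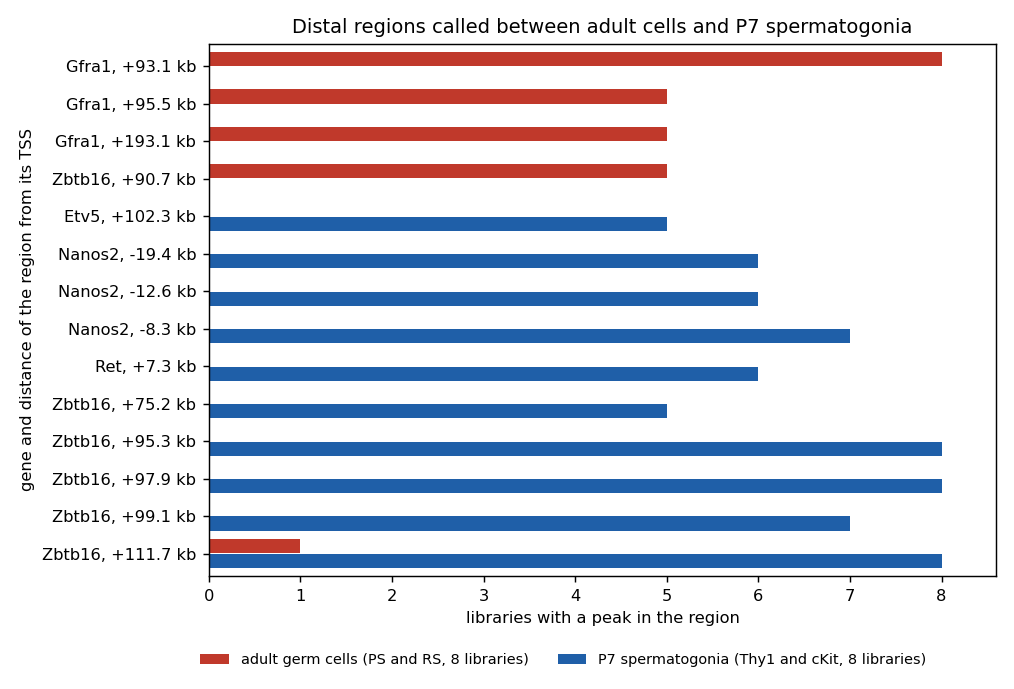
The 14 distal regions called between adult germ cells and P7 spermatogonia, named by gene and by distance from the TSS in kb (positive downstream). Bars give the number of libraries with a peak, of 8 adult (red) and 8 P7 (blue). Only 1 of the 14 regions, in Zbtb16, had a peak in both ages.

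The 3 called Gfra1 regions lie in introns of the gene. The most widely shared (chr19:58360175-58361318, mm10, 93.1 kb downstream of the TSS) had a peak in 8 of 8 adult and 0 of 8 P7 libraries (Fisher's exact test, adjusted p = 0.00402). Its folds were 9.88 and 3.80 in PS KO, 5.68 and 5.03 in PS WT, 18.5 and 5.20 in RS KO and 3.88 and 4.51 in RS WT. The adult and P7 libraries did not overlap, and it was called in all 16 fits that left out 1 library. It was not called with only peaks at a −log10 q of 5 or more, nor with lists of equal length. Its fold of 3.80 in PS KO replicate 2 matched the lowest of that list.

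A second Gfra1 region (chr19:58259932-58261337, 193 kb downstream) was open mainly in spermatocytes. All 4 PS libraries had it, at 21.8 and 11.4 in KO and 17 and 11.1 in WT, and RS KO replicate 1 had it at 3.78, whereas the other 3 RS libraries and the 8 P7 libraries did not (adjusted exact p = 0.0418). Another (chr19:58358089-58358946, 95.5 kb downstream) had a peak at 9.88 in PS KO replicate 1, 7.23 and 7.54 in PS WT, 5.68 in RS KO replicate 1 and 4.98 in RS WT replicate 1, and in 0 of 8 P7 libraries (adjusted exact p = 0.0418). Both of these regions were open in 5 libraries, the fewest that were tested. With any 1 of those 5 left out the difference was 57.1 points and the region was not tested, so that each was called in 11 of the 16 fits that left out 1 library.

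Nanos2 had 3 distal regions in all, each upstream of the gene and each open in P7 cells alone. The nearest (chr7:18978777-18979232, 8.29 kb upstream) had a peak in 0 of 8 adult and 7 of 8 P7 libraries (adjusted exact p = 0.00877). Its folds were 11.2 and 7.95 in Thy1 KO, 9.04 and 7.63 in Thy1 WT, 20.2 in cKit KO replicate 1 and 14.2 and 11.3 in cKit WT. The only P7 library without it was cKit KO replicate 2, the shortest list. The other 2 (chr7:18974370-18974900, 12.6 kb upstream, and chr7:18967666-18968079, 19.4 kb upstream) each had a peak in 0 of 8 adult and 6 of 8 P7 libraries (adjusted exact p = 0.0199 for each). The 2 nearer regions also name the neighbouring gene Mypop in the lists. So the promoter of Nanos2 was weak or unlisted even where these upstream regions were strong, at folds up to 22.4 in cKit KO replicate 1.

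**Figure D4:**
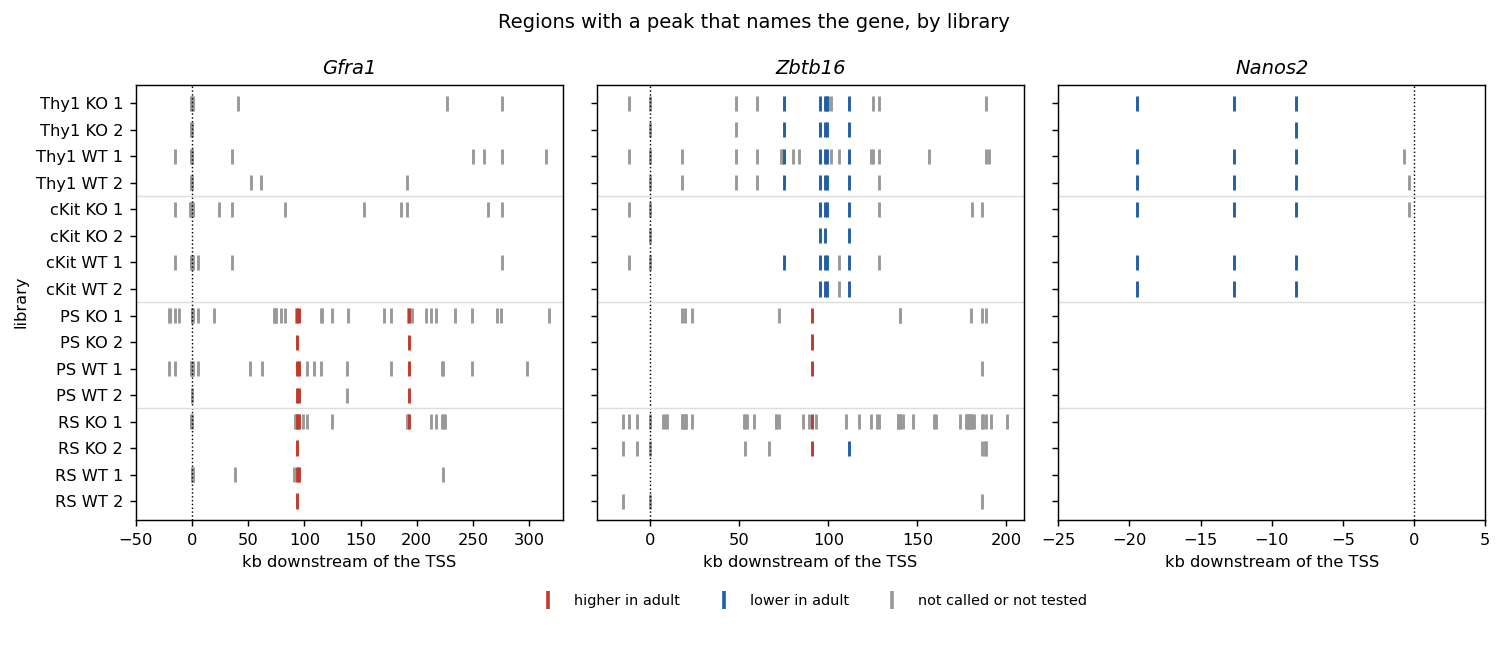
Positions of regions with a peak that names Gfra1, Zbtb16 or Nanos2, in kb downstream of the TSS (horizontal axis, dotted line at the TSS), in each library (rows). Red marks regions called higher and blue regions called lower in adult cells, and grey marks regions not called or not tested. The blue Zbtb16 cluster near 100 kb runs through the 8 P7 libraries, and the red Gfra1 marks through PS and RS libraries.

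Zbtb16 had the most distal regions, 73, of which 57 lie in introns. A pair of them (chr9:48737304-48738027, 97.9 kb downstream, and chr9:48740077-48740681, 95.3 kb downstream) had a peak in 0 of 8 adult and 8 of 8 P7 libraries (adjusted exact p = 0.00402 for each). Folds at the first were 14.8 and 4.77 in Thy1 KO, 11.5 and 7.09 in Thy1 WT, 4.79 and 5.24 in cKit KO and 3.56 and 4.11 in cKit WT. Folds at the second were 9.17 and 5.56 in Thy1 KO, 10.3 and 6.00 in Thy1 WT, 4.26 and 4.72 in cKit KO and 7.71 and 5.14 in cKit WT. Another (chr9:48723291-48724287, 112 kb downstream) had a peak in 1 of 8 adult libraries, at 4.33 in RS KO replicate 2, and in 8 of 8 P7 libraries, at 20.4 and 4.77 in Thy1 KO, 16.3 and 15.3 in Thy1 WT, 6.93 and 7.34 in cKit KO and 11.9 and 7.71 in cKit WT (adjusted exact p = 0.00877). All 3 were called in the 16 fits that left out 1 library. One Zbtb16 intron region, 90.7 kb downstream, went the other way (chr9:48743793-48745288, named after its values were seen). It had a peak in 5 of 8 adult libraries, at 10.9 and 5.43 in PS KO, 9.81 in PS WT replicate 1 and 20.8 and 3.46 in RS KO, and in 0 of 8 P7 libraries (adjusted exact p = 0.0418). It lies in the same stretch of introns, 75.2 to 112 kb downstream, as the 5 regions that were lower in adult cells, and with any 1 of its 5 libraries left out the difference was 57.1 points and was not tested.

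Ret was lower in adult cells at a region in its own introns (chr6:118189847-118190413, 7.33 kb downstream), which had a peak in 0 of 8 adult and 6 of 8 P7 libraries (adjusted exact p = 0.0199). Its folds were 11.2 in Thy1 KO replicate 1, 10.3 and 5.45 in Thy1 WT, 10.7 in cKit KO replicate 1 and 13.1 and 6.68 in cKit WT. The Ret region open in most libraries (chr6:118179473-118180036, 17.7 kb downstream) had a peak in 3 adult and 6 P7 libraries (adjusted exact p = 0.375). For Etv5 an intergenic region (chr16:22337048-22337265, 102 kb on the downstream side) had a peak in 0 adult and 5 P7 libraries (adjusted exact p = 0.0418). Those 5 were Thy1 KO replicate 1, both Thy1 WT libraries and replicate 1 of cKit KO and of cKit WT, at folds of 4.26 to 7.64, and with any 1 of them left out the difference was -57.1 points and was not tested. The Etv5 intron region open in most libraries (chr16:22428494-22429339, 10.2 kb downstream) had a peak in 6 adult and 6 P7 libraries, at a fold of 23.5 in RS KO replicate 1.

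No distal region of Pou3f1 was called. The one with the widest difference (chr4:124647729-124648270, 9.38 kb upstream) had a peak in 1 adult library, RS KO replicate 1 at 4.16, and in 6 P7 libraries at folds of 4.91 to 19.2 (adjusted exact p = 0.0607). The one open in most libraries (chr4:124575230-124575939, 81.7 kb upstream, also naming 4933407E24Rik) had a peak in 2 adult and 6 P7 libraries (adjusted exact p = 0.177). Id4 had 0 distal regions, Bcl6b 2, Lhx1 2 and Eomes 8, and none of these was open in more than 2 libraries.

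The distal peaks of each gene were then counted per library and set against the length of the list. Of the 7 genes with 16 or more distal peaks over all libraries, 2 (28.6%) were called between adult and P7 cells, Nanos2 and Pou3f1, both lower in adult cells. In wild-type libraries alone 0 of them were called, as were 0 over all genes tested. There 4 libraries against 4 allow no two-sided exact p under 0.0286. When every list was held to one length, Zbtb16 alone of the 10 genes had 16 distal peaks or more and it was not called (exact permutation test, adjusted p = 0.291). Over all genes tested 26.2% were called, 7.98% higher and 18.2% lower in adult cells (922 and 2102 genes, or 410 and 459 with lists of equal length). Nanos2 had 0 distal peaks in the 8 adult libraries and 3.37 ± 2.69 per 100000 listed peaks in the P7 libraries (SD, n = 8; exact permutation test, adjusted p = 0.0119), with distal peaks in 7 of 8. Pou3f1 had 0.431 ± 0.995 in adult and 2.50 ± 1.77 in P7 libraries (SD, n = 8 each; exact permutation test, adjusted p = 0.0474). That call was lost in 14 of 16 fits that left out 1 library, where the adjusted p reached 0.0833, and was kept without Thy1 KO replicate 2 (0.0259) and without PS KO replicate 1 (0.0250). With 500 bp on either side of the TSS counted as promoter, the Pou3f1 difference was -0.935 per 100000 (exact permutation test, adjusted p = 0.503).

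Gfra1 had 14.8 ± 9.87 distal peaks per 100000 in adult and 4.65 ± 4.30 in P7 libraries (SD, n = 8 each), which missed the threshold (exact permutation test, adjusted p = 0.0583). PS libraries had the highest mean, 20.9, with 32.2 and 9.14 in KO and 22.3 and 20.2 in WT. RS libraries had 12.2 and 3.69 in KO and 15.3 and 3.22 in WT. Thy1 libraries had 4.52 and 1.92 in KO and 5.15 and 5.33 in WT, and cKit libraries 13.1 and 0 in KO and 7.20 and 0 in WT. The Gfra1 difference passed without cKit KO replicate 1 (adjusted p = 0.0469), without RS KO replicate 2 (0.0316) and without RS WT replicate 2 (0.0290), each by the exact permutation test. In PS KO replicate 1, 30 of its 33 distal regions were open in no P7 library, and in PS WT replicate 1, 15 of 19. Of the 33, however, 18 were open in that library alone and 2 were also open in PS KO replicate 2. Of the 19, 6 were open in PS WT replicate 1 alone and 4 were also open in PS WT replicate 2. Most of these regions are thus not shared between replicates, and the counts do not mark sites particular to adult cells.

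Etv5 had 4.69 ± 3.42 in adult and 5.38 ± 3.70 in P7 libraries (SD, n = 8 each; exact permutation test, adjusted p = 0.803), and Eomes 1.12 ± 1.33 and 0.726 ± 0.795 in the same order (adjusted p = 0.622, exact permutation test). Ret had 2.35 ± 3.80 in adult and 2.13 ± 0.973 in P7 libraries (adjusted p = 0.969, exact permutation test), where 1 library, RS KO replicate 1 at 11, carried most of the adult mean. Without that library the Ret difference was -1 per 100000 (adjusted exact p = 0.287), and without cKit KO replicate 2 it was -0.0769.

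**Figure D5:**
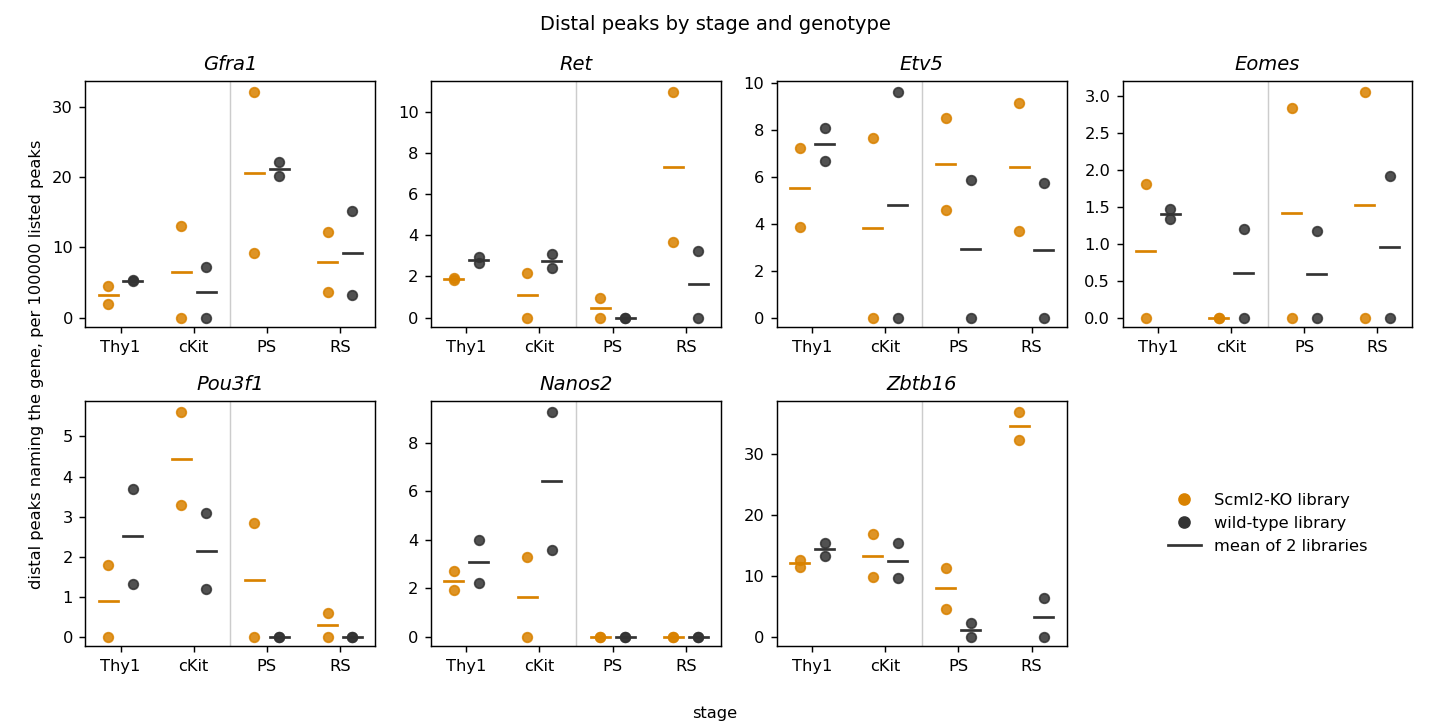
Distal peaks naming each gene per 100000 listed peaks (vertical axes) by stage, 1 point per library, with Scml2-KO in orange left of wild type in black and lines at the mean of 2 libraries. Zbtb16 stands at 32.3 and 36.9 in RS KO against 0 and 6.44 in RS WT, Gfra1 is highest in PS, and Nanos2 is at 0 in PS and RS.

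The Scml2 knockout was compared with wild type within stages, which asks whether loss of this Polycomb protein changes accessibility at the program. No promoter of the 10 genes was called. An exact test that exchanged genotype labels within stages was adjusted over promoters whose spread over the stages would allow a p of 0.05 in either direction. Of the 10 genes 3 met this limit (Gfra1, Lhx1 and Eomes) and 0 of 3 passed (adjusted exact p = 1 for each). Ret, with 7 of 8 KO and 4 of 8 WT libraries, and Zbtb16, with 6 and 4, did not meet it, and their unadjusted exact p-values were 0.25 and 0.5. Over all genes 0 of 808 were called, 0% of those tested, and 14 (1.73%) had an unadjusted p under 0.05. Of the distal regions 5 met the same limit, with 0 called and 0 at an unadjusted p under 0.05, as over all regions 0 of 8560 were called and 100 (1.17%) had an unadjusted p under 0.05. With so few p-values under 0.05 over all features, no split of these 3 promoters or 5 regions could have passed the adjustment. The 0 calls therefore do not show that accessibility was the same in both genotypes. Gfra1 had a promoter peak in 5 of 8 KO and 6 of 8 WT libraries, Lhx1 in 5 and 4, and Eomes in 6 and 5.

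Within single stages 2 libraries against 2 allow no p under 0.333, so the values are given as they stand. In RS, Lhx1 and Eomes had a promoter peak in 2 of 2 KO and 0 of 2 WT libraries, as did 29.0% of all genes open in 2 of the 4 RS libraries. In Thy1, Nanos2 had one in 0 of 2 KO and 2 of 2 WT libraries, as did 22.1% of the genes open in 2 of the 4 Thy1 libraries. The opposite splits, seen at 0 of the 10 promoters, made up 4.93% in RS and 2.0% in Thy1. Of the 10 genes, only Gfra1 (1 KO and 1 WT library) was also open in 2 of the 4 RS libraries. In Thy1 only Nanos2 was open in 2 of the 4. In cKit only Gfra1, Bcl6b and Eomes were open in 2 of the 4 libraries, and in PS only Lhx1. Each of these had 1 KO and 1 WT library and so was not split. Of all genes open in 2 of the 4 cKit libraries, 1.39% had both KO and no WT library and 1.51% the reverse. In PS these shares were 8.53% and 11.2%, in the same order.

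The widest gap between genotypes was in the distal peaks of Zbtb16 in round spermatids. RS KO libraries had 53 and 10 of them, or 32.3 and 36.9 per 100000 listed peaks, and RS WT libraries 0 and 2, or 0 and 6.44. The mean difference of 31.4 ranked 98 of 11548 genes (the top 0.849%), while in 14.3% of these genes both RS KO libraries lay above both RS WT libraries. That rank is by the difference itself, which can be wider in genes with more distal peaks. Zbtb16 had 156 over all libraries, the most of the 10 genes. The lists held 164060 and 27105 peaks in RS KO and 52379 and 31070 in RS WT, and the part of list length in this gap was not tested. Of the 52 Zbtb16 distal regions in RS KO replicate 1, 35 were open in that library alone and 45 in no P7 library. RS KO replicate 2 had 9, of which 6 were shared with replicate 1. In PS, KO libraries had 11.3 and 4.57 per 100000 and WT libraries 2.34 and 0, and in 9.06% of genes both PS KO libraries lay above both WT libraries. In Thy1 the order was opposite, with 12.6 and 11.5 in KO and 15.5 and 13.3 in WT. In cKit they overlapped, with 9.84 and 16.8 in KO and 9.59 and 15.5 in WT. Both KO libraries lay below both WT libraries at 14.6% of genes in Thy1, 12% in cKit, 9.98% in PS and 15.6% in RS, and above them at 11.3% in Thy1 and 4.29% in cKit.

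Of 38 somatic marker promoters, 15 and 10 were open in RS KO and 8 and 4 in RS WT. In PS, 10 and 3 were open in KO and 11 and 2 in WT. Their part in the Zbtb16 gaps was not tested. Over all 8 libraries of each age Zbtb16 had 11.7 ± 14.6 distal peaks per 100000 in adult and 13.1 ± 2.69 in P7 libraries (SD, n = 8 each; exact permutation test, adjusted p = 0.873).

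Promoters of the wider pathway were counted in the same way, where 33.3% of all genes tested were called and 24.8% were lower in adult cells. Of 10 GDNF family ligands and other receptors 4 were tested and 0 were called in either direction. The widest difference was at Gfra2, the co-receptor for neurturin, with 2 adult and 7 P7 libraries (Fisher's exact test, adjusted p = 0.0720). Among 25 genes of signalling downstream of RET, 14 were open in 16 of 16 libraries. Of these 25, 2 were tested and both were called. Grb7, an SH2 adaptor, was higher in adult cells (7 adult and 1 P7 library, adjusted p = 0.0304), and Dok5, a docking protein that binds RET, was lower (0 adult and 7 P7 libraries, adjusted p = 0.00873), both by Fisher's exact test.

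Of 11 other GDNF-induced or ETV5-dependent genes 2 were tested and 0 called. The chemokine receptor gene Cxcr4 had 4 adult and 8 P7 libraries, which was outside the range tested, and Ccnd2, which encodes cyclin D2, had 3 adult and 7 P7 libraries (Fisher's exact test, adjusted p = 0.188). Of 25 other stem and progenitor genes 7 were tested, with 0 called higher and 2 lower in adult cells, against 24.8% lower over all genes. Those were Tert, the catalytic subunit of telomerase, with 1 adult and 8 P7 libraries, and the syndecan gene Sdc4 with 0 adult and 7 P7 libraries (Fisher's exact test, adjusted p = 0.00873 for each). Of 24 paralogs of the 10 genes 8 were tested, with 0 called higher and 3 lower, against the same 24.8%, namely Id3 (2 adult and 8 P7 libraries, adjusted p = 0.0246) and Lhx6 and Pou3f4 (0 adult and 7 P7 libraries, adjusted p = 0.00873 for each, Fisher's exact test). The LIM gene Lhx6 and the POU gene Pou3f4 had peaks in P7 libraries alone, as had Lhx5 in 2 of them. Their relatives Lhx1 and Pou3f1 had peaks in both ages, and so had Lhx2, Lhx4, Lhx8, Lhx9, Pou3f2 and Pou3f3. Lhx3 had a peak in 1 library, an adult one. Somatic marker promoters differed between these ages as given above, and their part in the calls of these lists was not tested.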

How the data were processed

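Chromatin accessibility was measured by ATAC-seq in 16 mouse testis libraries, with 75-bp single reads from 250 to 500 bp gel slices, per the labels' protocols. Bowtie 1.1.1, MACS2 2.1.0.20140616 and the mm10 build are named in the submitters' processing notes, with no parameters, and whether reads were shifted for Tn5 is not given in the sources used here. Each library has its own deposited peak list, with pileup signal (coverage), a fold enrichment ratio and −log10 p and q values per peak. The fold is the authors' value and was used only to describe peaks within a list. No file gives counts, so intervals and count models were not used.

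Lines sharing 1 peak were joined and 576 lines on chrM were left out. A promoter or region was called open in a library where a listed peak overlapped it by 1 bp or more. Peaks of all libraries were merged into 367750 regions. Promoters and regions open in 5 to 11 libraries were tested with Fisher's exact test (8 adult against 8 P7), genotype with an exact test permuting within stages, and distal peaks per 100000 listed peaks with an exact permutation test. All were two-sided, with Benjamini-Hochberg adjustment over all features tested and a threshold of 0.05. Steps between stages and single stages were only counted. Stricter peak cutoffs, equal list lengths, other windows and overlaps, a replicate block, 1 genotype alone and each library left out were tried, and both RS KO libraries were left out after the data were seen. The tests were checked on simulated data (Python 3.11.15, numpy 2.4.6, pandas 2.3.3, scipy 1.17.1).

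All 10 genes were named. Of their distal regions the rule named up to 3 called ones, the one open in most libraries, and the one of largest difference where none was called. Of each list it named the called genes, or else those of largest difference. The members, lists and tests were chosen with earlier results of these data known. Replicate numbers recur in all groups, but the labels name no shared batch, so samples were not paired.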

Additional observations from a re-analysis of the deposited data

Results flagged for a closer look

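In 2 genes the order of distal peak densities between Scml2-KO and wild-type libraries turned round from stage to stage, with every library of 1 stage moving one way and every library of another the opposite way. The difference between stages was not tested in either case. All values are distal peaks per 100000 listed peaks.

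For Zbtb16, KO libraries lay above WT libraries in RS, at 32.3 and 36.9 against 0 and 6.44, and in PS, at 11.3 and 4.57 against 2.34 and 0. In Thy1 they lay below, at 12.6 and 11.5 in KO against 15.5 and 13.3 in WT. Somatic marker promoters were open at 15 and 10 of 38 in RS KO and 8 and 4 in RS WT, and at 10 and 3 in PS KO and 11 and 2 in PS WT. Their part in the result was not tested.

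For Ret, KO libraries lay above WT libraries in RS, at 11 and 3.69 against 0 and 3.22. They lay below in Thy1, at 1.81 and 1.92 in KO against 2.94 and 2.67 in WT, and in cKit, at 2.19 and 0 in KO against 2.4 and 3.09 in WT. Of the 17 distal Ret regions in RS KO replicate 1, 14 were open in that library alone. The second libraries of RS, KO and WT, each held 1 distal Ret peak, so that 3.69 and 3.22 differ by the length of the lists (27105 and 31070 peaks). The first libraries of cKit, KO and WT, each held 2, so that 2.19 and 2.4 differ in the same way (91480 and 83378 peaks).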

How the results depend on the processing

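Counts of calls moved with the peaks and libraries kept. Only peaks with a −log10 q of 5 or more gave 15461 called regions, 1733 distal densities and 104 RS-against-PS promoters, and a fold of 5 or more gave 17272 regions and 142 such promoters, against 29640, 3024 and 68. Lists of equal length gave 7986 regions, 869 densities, 2125 promoters (against 1300), 1107 PS-against-cKit promoters (against 503) and 322 RS-against-PS promoters. Of the 10 genes' distal regions 4 were called higher in adult cells, against 0 at that q, 1 at that fold, 0 at equal length and 1 without both RS KO libraries. The 10 called lower became 2 at equal length, and the 2 densities became 0 at equal length and 1 with a 500 bp window. Wild-type libraries alone gave 11748 regions, 0 densities, 1 member region higher, 0 member densities and 439, 1618 and 632 promoters for the 3 steps, with 1 member separated for cKit against Thy1 and 1 for RS against PS. KO libraries alone gave 0 promoters, regions, densities or member calls and 190, 923 and 432 for the steps, with 1 member separated in each. Without 1 library at a time, promoters called ranged from 1325 to 2240, regions 22103 to 32176, densities 2379 to 3377, the steps 50 to 147, 503 to 885 and 68 to 200, member regions higher 1 to 5 and lower 8 to 12, member densities 1 to 2, and member promoters called or separated at a step 0 to 1. Genotype calls were 0 in all of these. The cause of these moves was not tested, though wild-type or KO libraries alone are 8 in place of 16.

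The Lhx1 promoter difference of -12.5 points was 37.5 at that q, at that fold and at equal length, and 25 in KO libraries alone. The Ret density difference of 0.227 was -1.62 at that q, -1.38 at that fold, -1.97 in wild type alone, -1.43 without both RS KO libraries and -1 to 0.563 without 1 library. The Eomes difference of 0.394 was -0.231 in wild type alone. In KO alone the Etv5 difference of -0.696 was 1.8 and the Zbtb16 difference of -1.35 was 8.57, and the last ranged from -4.94 to 0.33 without 1 library. The cause was not tested. With the replicate number as a block 2230 promoters were called and Gfra1 density passed (adjusted p = 0.0195, exact permutation test). Deviations of same-numbered libraries correlated at -0.00337 to 0.423 over 28 pairs of groups. The numbers follow the sample titles, and the deposited file names carry others, which bears on the block and on replicate names. The distal density was not run with any peak in the window. Depth is unknown, so an unlisted peak is not evidence of closed chromatin.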
